A study of Mus musculus with 6 samples.

Results

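Genes of the S100, annexin and galectin families were followed in regulatory T cells (Tregs) sorted from skin and from skin-draining lymph nodes (SDLNs). They were S100a4, S100a6, S100a8, S100a9, S100a10, S100a11, Anxa1, Anxa2, Lgals1 and Lgals3, picked by name as family members linked to effector T cells and to myeloid cells, and they made up 10 of the 49315 genes counted. Measured levels played no part in the rule, but the list was drawn up with earlier results of these libraries known. By symbol, the 3 families held 37 genes in all.

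The series held bulk RNA-seq of 6 samples, 3 titled skin Treg and 3 titled LN Treg, all of genotype Foxp3-GFP, a reporter in which cells expressing Foxp3 make green fluorescent protein. The mice were 9 days old and on a C57BL/6J background, and no treatment is named for them. Each sample pooled 3 biological replicates, was enriched for CD45+ cells on magnetic beads and was sorted for living CD45+ CD4+ Foxp3-EGFP+ cells, from skin digested with enzymes or from mashed nodes. The tissue field read Skin for the node samples too, so the groups rest on the titles, and the lettered columns (A to C in each tissue) could not be tied to the numbered titles. P-values below measure the spread between pooled samples.

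S100 proteins are small calcium-binding proteins that work as dimers and change their partners when calcium binds. S100a8 and S100a9 form calprotectin, which is abundant in neutrophils and monocytes, while S100a4, S100a6, S100a10 and S100a11 are made by many motile or activated cells. Annexins bind membrane phospholipids in a calcium-dependent way, and galectins bind beta-galactoside sugars on glycoproteins, inside and outside the cell. In T cells, S100a4, S100a6, Anxa1, Anxa2 and Lgals1 are widely used as part of effector and tissue signatures.

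The libraries differed in depth and in how well they matched each other. Skin totals were 3748669 to 11741784 counts and SDLN totals 47243498 to 116158706. Levels are given as CPM, the counts of a gene scaled to the library total. Where no read was counted, up to 3 counts remain possible, a floor of 0.255 to 0.8 CPM in skin and of 0.0258 to 0.0635 CPM in SDLN. Genes at or under 3 counts are called at the floor. Between 2911 and 5317 genes reached 1 CPM in a skin library, against 12397 to 13002 in an SDLN library. Across 8274 genes, log CPM values of the SDLN libraries correlated at 0.932 to 0.971 with each other, and those of the skin libraries at 0.276 to 0.34. Each skin library thus stood apart from the other skin libraries, and fits without each library are given beside the tests of the 10 genes. The genes of the sort go against the label in 2 skin libraries: Foxp3 had 0, 330 and 1 counts in skin A to C and 12208, 10133 and 1788 in SDLN A, B and C, and Cd4 had 0, 1861 and 2 counts in skin and 54756, 39115 and 14288 in SDLN. What the cells of skin A and C were is therefore in doubt, and skin Tregs below means the libraries labelled so. In skin B, Foxp3 and Cd4 were counted but lay below every SDLN library. Foxp3 was at 28.1 CPM there against 37.8 to 139 CPM in SDLN, and Cd4 at 158 CPM against 302 to 537 CPM. Cd3g, a chain of the T cell receptor complex, was counted in every library, at 607 to 888 CPM in skin and 1132 to 1209 CPM in SDLN. Of its other chains, Cd3e was at 0, 150 and 293 CPM in skin A, B and C and 578 to 1063 CPM in SDLN, and Cd3d at 198 to 355 CPM in skin and 677 to 926 CPM in SDLN. In bulk libraries such as these, fewer cells of a type and less RNA per cell cannot be told apart.

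Of the 10 genes, 8 had more than 3 counts in all 6 libraries and were tested with edgeR, while S100a8 and S100a9 did not pass the filter on low counts. Among the 8, Anxa1, Anxa2, Lgals1 and Lgals3 were higher in skin Tregs (edgeR quasi-likelihood test, Benjamini-Hochberg adjusted p under 0.05) and 0 were lower. Of the 13572 genes tested, 1.04% were called higher in skin and 45.3% lower, and of the 1623 tested genes with over 3 counts in every library, which is the group the 8 belong to, 7.39% were called higher and 1.66% lower. For 6 of the 8, all skin values lay above all SDLN values, a pattern found in 2.39% of the genes tested and in 18.2% of the 1623. The opposite pattern, all skin values below, was found for 0 of the 8 and for 53.6% of the genes tested. The median log2 fold change (skin over SDLN) was 1.74 over the 8 genes, 0.28 over the 1623 and -2.21 over all genes tested, where it includes genes at 0 in skin whose fitted values depend on the prior count of the fit.

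Added together, the 10 genes took 8589, 8422 and 6596 CPM in skin A to C and 2919, 2791 and 3020 CPM in SDLN A, B and C. The skin sums averaged 7869 ± 1106 CPM (SD, n = 3) and the SDLN sums 2910 ± 115 CPM (SD, n = 3), a ratio of 2.7, and the ranges did not overlap. Leaving out any 1 library gave ratios of 2.58 to 2.92.

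**Figure D1:**
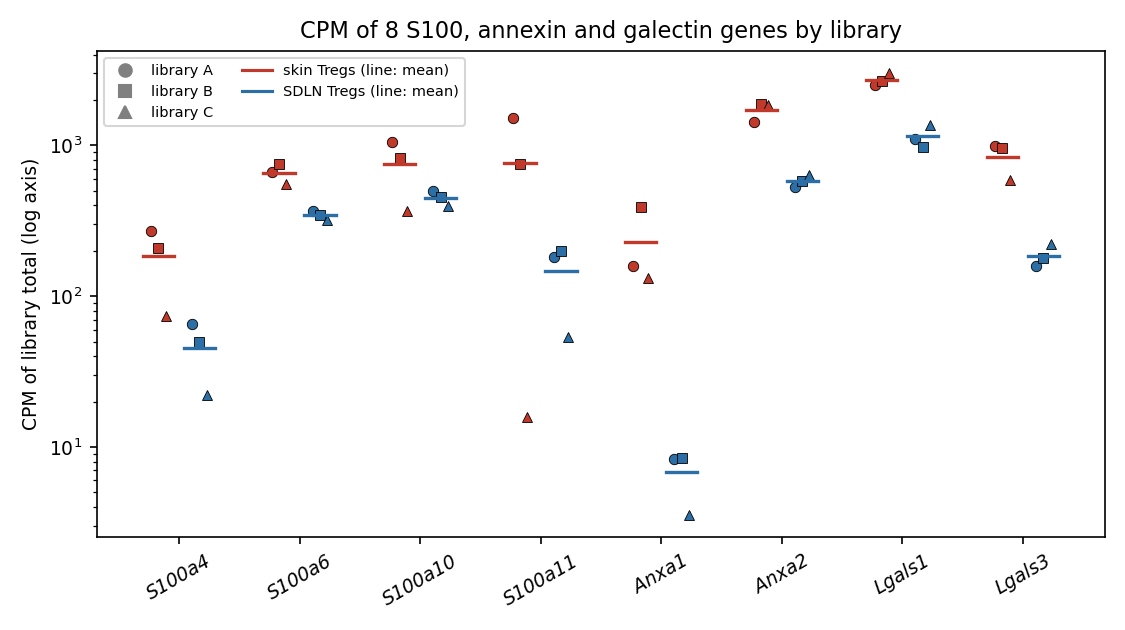
CPM of the library total (log axis) of the 8 genes counted in every library, with a symbol per library and a line at the mean of 3 libraries for skin Tregs (red) and SDLN Tregs (blue). All skin points lie above all SDLN points for S100a4, S100a6, Anxa1, Anxa2, Lgals1 and Lgals3, and the points overlap for S100a10 and S100a11, whose skin library C falls to 15.9 CPM.

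The windows before the RefSeq start sites of 4 of these genes are shown because they include a pair that was called higher (Anxa2, Lgals3) and a pair that was not called, with means at least 4-fold apart (S100a4, S100a11). RefSeq start sites on build GRCm38.p6 were found for 8 of the 10 genes, and not for S100a10 and Lgals1. Each window runs 5′ to 3′ on the strand of the gene, begins 250 bases before the start and stops before the next exonic base in GENCODE M21. The RefSeq start of Lgals3 lies inside the gene as GENCODE M21 places it, so that its window is not upstream of the whole gene. Capitals mark the letters found by a search of both strands for the TATA box (TATAAA), the GC box (GGGCGG), the AP-1 motif (TGANTCA) and the letters CCAAT, which read ATTGG when they lie on the opposite strand.
Anxa2 (chr9:69453433-69453619, + strand): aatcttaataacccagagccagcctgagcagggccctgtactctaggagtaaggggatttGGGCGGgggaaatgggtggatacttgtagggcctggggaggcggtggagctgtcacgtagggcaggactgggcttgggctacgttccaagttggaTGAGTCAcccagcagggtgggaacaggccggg
Lgals3 (chr14:47373610-47373812, + strand): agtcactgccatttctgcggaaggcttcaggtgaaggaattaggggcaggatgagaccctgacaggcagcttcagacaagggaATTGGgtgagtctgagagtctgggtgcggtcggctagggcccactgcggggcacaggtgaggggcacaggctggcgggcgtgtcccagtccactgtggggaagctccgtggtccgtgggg
S100a4 (chr3:90603520-90603769, + strand): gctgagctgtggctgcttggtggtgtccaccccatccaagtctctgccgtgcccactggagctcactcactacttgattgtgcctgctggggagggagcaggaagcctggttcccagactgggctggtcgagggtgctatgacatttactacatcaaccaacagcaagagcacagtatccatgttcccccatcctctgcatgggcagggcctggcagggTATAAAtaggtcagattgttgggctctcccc
S100a11 (chr3:93520246-93520487, + strand): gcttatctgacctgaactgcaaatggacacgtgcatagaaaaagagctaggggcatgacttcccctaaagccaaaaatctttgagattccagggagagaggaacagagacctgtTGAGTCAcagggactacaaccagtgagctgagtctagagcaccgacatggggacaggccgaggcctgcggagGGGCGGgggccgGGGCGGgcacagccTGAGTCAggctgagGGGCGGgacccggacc

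Counted over the full 250 bases before the start, TGANTCA was found in S100a11, with its first base at -136 and -38, and in Anxa2, at -95, and in 6.75% of 32851 RefSeq windows of that length. TATAAA was found in S100a4 at -31, S100a8 at -30, Anxa1 at -32 and Anxa2 at -17, and in 12.4% of all windows. GGGCGG was present in the windows of S100a9, S100a11, Anxa2 and Lgals3 and in 32.7% of all, and CCAAT in those of S100a6 and Lgals3 and in 33.8% of all. These matches describe letters and do not show that a factor was bound.

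The calprotectin genes lie side by side on chromosome 3 (GRCm38), S100a8 at chr3:90668978-90670035 on the + strand and S100a9 at chr3:90692632-90695721 on the - strand. S100a8, which together with S100a9 is released by neutrophils as an alarm signal, had 0 counts in skin A, B and C, so levels up to 0.8, 0.255 and 0.332 CPM remain possible. In SDLN it had 0 counts in A and C and 10 counts in B, which is 0.137 CPM. S100a9 had 0 counts in all 6 libraries. Neither gene was detectable in skin Tregs at this depth, and neither could be tested. Of 12 neutrophil marker genes, 11 were likewise at the floor throughout skin, including Ly6g, Retnlg, Mpo and Elane, and the summed CPM of the list was 0.8, 282 and 0.111 in skin A to C and 4.76 to 6.2 in SDLN, with Ltf as its most abundant gene in skin.

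The other S100 genes were counted in every library, and none of the 4 passed the test. S100a4 (chr3:90603771-90606045, + strand), a calcium sensor that binds non-muscle myosin and is linked to cell motility, was at 271, 209 and 74.3 CPM in skin A to C, and SDLN A to C held 65, 49.5 and 22.2 CPM. All skin values lay above all SDLN values, although skin C and SDLN A came close, and C was the lowest library in both tissues. Skin averaged 185 ± 101 and SDLN 45.6 ± 21.7 CPM (SD, n = 3 each), 4.06-fold apart. The log2 fold change of 1.89 had an SE of 1.07 and an edgeR adjusted p of 0.255, and DESeq2 was the 1 of 17 alternative fits that called it (adjusted p = 0.0128, over a range of 0.0128 to 0.73). It was called in 0 of the 6 fits without 1 library, with log2 fold changes up to 2.19. An exon of Gm42674 overlaps S100a4 on the same strand, so reads there could have gone to either gene.

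S100a6 (chr3:90612882-90624181, + strand), named calcyclin for its rise in cycling cells, was at 663, 752 and 551 CPM in skin A to C, and SDLN A to C held 365, 345 and 322 CPM. Its libraries were close to each other within each tissue and did not overlap between tissues. The means of 656 ± 101 and 344 ± 21.3 CPM (SD, n = 3 each) differed 1.91-fold, with a log2 fold change of 0.91, an SE of 0.413 and an edgeR adjusted p of 0.144. DESeq2 called it (adjusted p = 1.60e-05), as did edgeR without skin A (adjusted p = 0.0386), and the other 15 fits did not, with adjusted p up to 0.571.

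S100a10 (chr3:93555080-93564643, + strand), the S100 protein that pairs with Anxa2 and does not need calcium to do so, was at 1061, 830 and 367 CPM in skin A to C, and SDLN A to C held 495, 455 and 399 CPM. Skin C lay below every SDLN library, so the groups overlapped. Skin averaged 752 ± 353 and SDLN 450 ± 47.8 CPM (SD, n = 3 each), and the log2 fold change of 0.62 (SE 0.407) had an edgeR adjusted p of 0.341. None of the 17 alternative fits called it, with adjusted p from 0.11 to 0.724.

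S100a11 (chr3:93520488-93526287, + strand), which binds Anxa1 and acts in membrane repair, varied more than any other of the 8. It was at 1511, 752 and 15.9 CPM in skin A, B and C, the last from 144 counts, and at 183, 200 and 53.2 CPM in SDLN. The highest skin library held 94.8 times the level of the lowest, and skin C was below all SDLN libraries. Skin averaged 760 ± 748 and SDLN 146 ± 80.5 CPM (SD, n = 3 each), and the log2 fold change of 2.12 (SE 1.34) had an edgeR adjusted p of 0.319. Without skin C it became 2.55 with an adjusted p of 0.0421, without skin A 1.33 with an adjusted p of 0.55, and with limma voom and quality weights it turned to -0.11 with an adjusted p of 0.968. The call for S100a11 thus turned on skin C. Pseudogene copies of S100a11 and of Lgals1 are annotated, and reads shared with such copies could have been lost or split in the counting, which was not checked.

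Both annexins were higher in skin Tregs. Anxa1 (chr19:20373428-20390944, - strand) is a ligand of formyl peptide receptors with anti-inflammatory effects and a modulator of T cell activation. It was at 158, 393 and 132 CPM in skin A to C, and SDLN A to C held 8.32, 8.43 and 3.56 CPM, so that even the lowest skin library was far above the highest SDLN library. Skin averaged 228 ± 144 and SDLN 6.77 ± 2.79 CPM (SD, n = 3 each), a 33.6-fold difference and the widest of the 8 genes. The log2 fold change was 5.10 with an SE of 1.24 and an edgeR adjusted p of 0.0164, and 13 of 17 alternative fits called it. Without SDLN A, B or C the adjusted p became 0.109, 0.0847 and 0.0733, with log2 fold changes of 4.69 to 5.23. With the column letter (A to C) added to the edgeR fit as a block, the adjusted p was 0.355 at a log2 fold change of 4.98. Without skin B the log2 fold change was 4.36 and the call held (adjusted p = 0.0133).

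Anxa2 (chr9:69453620-69491795, + strand) links membranes to actin and, with S100a10, gathers plasminogen and its activator at the cell surface. It was at 1430, 1869 and 1840 CPM in skin A to C, and SDLN A to C held 533, 585 and 632 CPM, with a narrow spread in both tissues and no overlap. The means of 1713 ± 246 and 583 ± 49.2 CPM (SD, n = 3 each) differed 2.94-fold, and the log2 fold change was 1.58 (SE 0.388, edgeR adjusted p = 0.0177). Of 17 alternative fits, 11 called it. The adjusted p was 0.0538 without SDLN A, 0.0625 without skin B and 0.052 without skin C. An exon of Gm16144 overlaps Anxa2 on the opposite strand, and with the strand setting of the counting not given, reads of the pair cannot be told apart.

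Both galectins were higher in skin Tregs as well. Lgals1 (chr15:78926725-78930465, + strand), which crosslinks glycans on T cells and is made by Tregs as a suppressive lectin, was at 2510, 2658 and 3029 CPM in skin A to C, and SDLN A to C held 1111, 970 and 1365 CPM, and every skin library held more than the highest SDLN library. The means of 2733 ± 267 and 1149 ± 200 CPM (SD, n = 3 each) differed 2.38-fold, with a log2 fold change of 1.26 (SE 0.363, edgeR adjusted p = 0.0321). This was the least secure of the 4 calls, made by 9 of 17 alternative fits: without SDLN A, SDLN B, skin B or skin C the adjusted p was 0.0556, 0.0572, 0.0882 and 0.0714, and the log2 fold change reached down to 0.87.

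Lgals3 (chr14:47367751-47386160, + strand), the galectin with a collagen-like tail that forms lattices on glycoproteins and is abundant in macrophages, was at 985, 959 and 586 CPM in skin A, B and C. In SDLN it was at 158, 178 and 223 CPM, below every skin library. Skin averaged 843 ± 223 and SDLN 186 ± 33 CPM (SD, n = 3 each), 4.52-fold apart, with a log2 fold change of 2.11 (SE 0.433). Its edgeR adjusted p of 0.00908 was the lowest of the 8 genes, and 13 of 17 alternative fits called it, including 5 of the 6 that left out 1 library. The exception was without SDLN A, at an adjusted p of 0.0531. With the column letter (A to C) added to the edgeR fit as a block, Lgals3 was not called either (adjusted p = 0.0736).

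**Figure D2:**
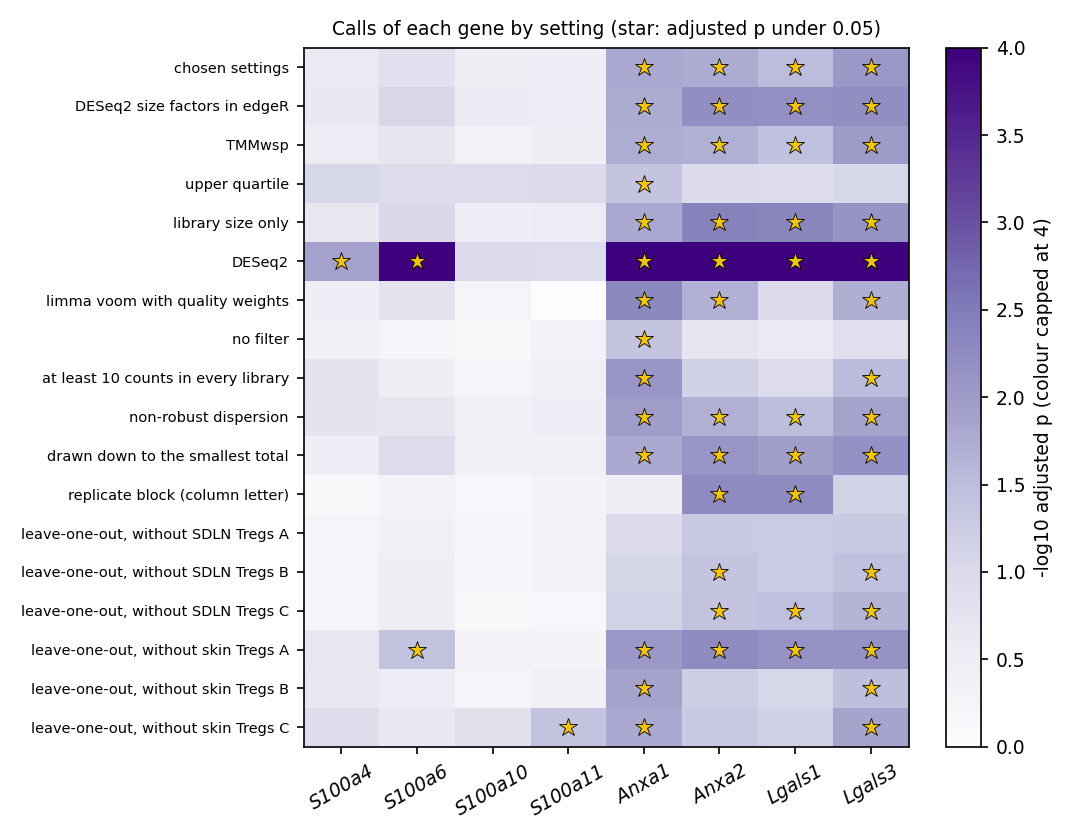
Adjusted p of each of the 8 genes (columns) in the chosen fit and in 17 alternatives (rows), as -log10 with the colour capped at 4 and a star where the adjusted p was under 0.05. Anxa1 and Lgals3 carry the most stars in the alternatives, 13 each, S100a10 carries none, and without SDLN library A no gene carries one.

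Leaving out single libraries moved the number of the 8 genes called higher between 0 and 5. It was 0 without SDLN A, 2 without SDLN B (Anxa2, Lgals3), 2 without skin B (Anxa1, Lgals3) and 5 without skin A, where S100a6 joined the 4. DESeq2 called 6 of the 8 higher, adding S100a4 and S100a6, where it called 3.23% of the 12502 genes to which it gave an adjusted p. In no fit was any of the 8 called lower in skin.

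The spread among skin libraries divided the 8 genes. The coefficient of variation in skin was 9.78% for Lgals1, 14.3% for Anxa2, 15.4% for S100a6 and 26.5% for Lgals3, against 47% for S100a10, 54.5% for S100a4, 63.1% for Anxa1 and 98.4% for S100a11. In SDLN it ran from 6.18% for S100a6 to 55.3% for S100a11, and S100a4 and Anxa1 were again among the more variable. Skin library C held the lowest skin value of S100a4, S100a6, S100a10, S100a11, Anxa1 and Lgals3.

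Ratios of counts taken within a library do not depend on its scaling. The ratio of S100a10 to its partner Anxa2 was 0.742, 0.444 and 0.199 in skin A to C and 0.927, 0.778 and 0.632 in SDLN. The skin and SDLN ratios overlapped, since skin A lay above SDLN C. Lgals3 relative to Lgals1 was 0.392, 0.361 and 0.193 in skin and 0.142, 0.184 and 0.163 in SDLN, with every skin ratio the higher. Anxa1 relative to Anxa2 was 0.11, 0.21 and 0.0719 in skin and 0.0156, 0.0144 and 0.00563 in SDLN, again without overlap, whereas S100a4 relative to S100a6 (0.135 to 0.409 in skin and 0.0689 to 0.178 in SDLN) and S100a11 relative to S100a10 (0.0435 to 1.42 and 0.133 to 0.44) overlapped.

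To set the genes against each other, levels were expressed as RPKM, the CPM divided by the length of the exon union in kilobases. On this scale Lgals1 led in skin at 3026 ± 296, followed by S100a11 at 1487 ± 1463, S100a10 at 621 ± 292, S100a6 at 480 ± 73.6, Anxa2 at 459 ± 65.9, Lgals3 at 454 ± 120, S100a4 at 317 ± 173 and Anxa1 at 78.2 ± 49.3 (SD, n = 3 each). Neighbours from Lgals1 down to Anxa1 had overlapping ranges in skin, so their order is not firm. In SDLN, Lgals1 at 1272 ± 222 stood clear of S100a10 at 371 ± 39.5, which overlapped S100a11 at 285 ± 157, and S100a11 overlapped S100a6 at 252 ± 15.5. Below them came Anxa2 at 156 ± 13.2, Lgals3 at 100 ± 17.8 and S100a4 at 78 ± 37.1, of which the last pair overlapped, and Anxa1 stood clear at the bottom at 2.33 ± 0.957. Dividing by the median length of protein-coding transcripts instead, a choice made after seeing the data, kept Lgals1 first and Anxa1 last in both tissues and moved Anxa2 above S100a6 in skin, and S100a6 and Anxa2 above S100a11 in SDLN.

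**Figure D3:**
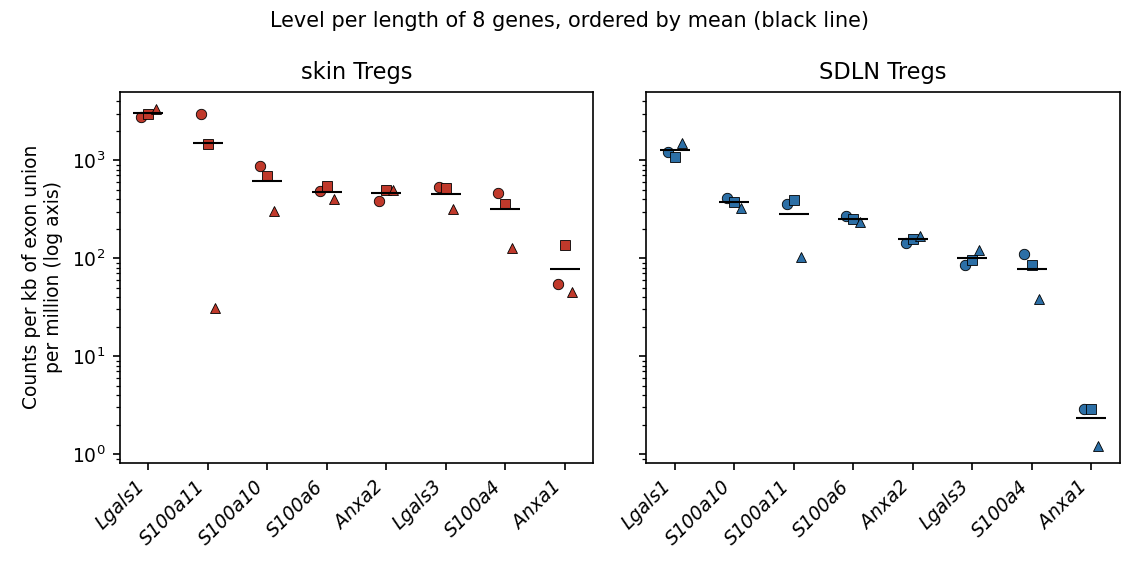
RPKM over the exon union (log axis) of the 8 genes in skin Tregs (left) and SDLN Tregs (right), ordered by their mean (black line), with circles, squares and triangles for libraries A, B and C. Lgals1 leads and Anxa1 is last in both tissues, and S100a11 spans the widest range in skin.

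The 10 genes are a selection from larger families. The counts below stand against 1.04% of all tested genes called higher and 45.3% called lower in skin. Of 17 S100 genes, 14 were over 3 counts in any library and 7 were tested; 0 were called higher and 2 lower in skin. Those were S100a1, with 0 counts in all skin libraries and 7.04 ± 3.32 CPM in SDLN (edgeR adjusted p = 0.00567), and S100a3, at the floor in skin and at 2.28 ± 0.588 CPM in SDLN (adjusted p = 0.00345). Both passed the filter on low counts only through SDLN, so lower was the only call open to them. Of 12 annexin genes, 7 were tested and 3 were higher in skin, 0 lower. The third besides Anxa1 and Anxa2 was Anxa5, the annexin used to stain exposed phosphatidylserine, at 969, 446 and 682 CPM in skin A to C and 186, 155 and 224 CPM in SDLN. Its skin values all exceeded its SDLN values, and the log2 fold change was 1.81 (SE 0.493, edgeR adjusted p = 0.0249, called in 9 of 17 alternative fits). Without 1 library it was called in 2 of 6 fits.

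Of 8 galectin genes, 6 were tested, 2 were higher in skin and 1 was lower. The lower one was Lgals4, an epithelial galectin, at the floor throughout skin and at 19.4 ± 4.7 CPM in SDLN (edgeR adjusted p = 0.0038). Lgals4 too passed the filter only through SDLN and could be called only lower. Over the 3 families, 20 of 37 genes were tested, 5 were higher and 3 lower, and their median log2 fold change was 0.86. Among the 12 tested genes outside the list of 10, the median was 0.03, with 1 higher and 3 lower. Anxa6, for example, was at 476, 1275 and 946 CPM in skin and 815, 850 and 798 CPM in SDLN, with an edgeR adjusted p of 0.897 and a log2 fold change of 0.21, and S100a13 had a log2 fold change of -0.05 (adjusted p = 0.988). Lgals8 and Anxa4 were at 0 in some skin libraries and above every SDLN library in others, at 0, 170 and 182 CPM and at 0, 0 and 260 CPM in skin A, B and C.

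**Figure D4:**
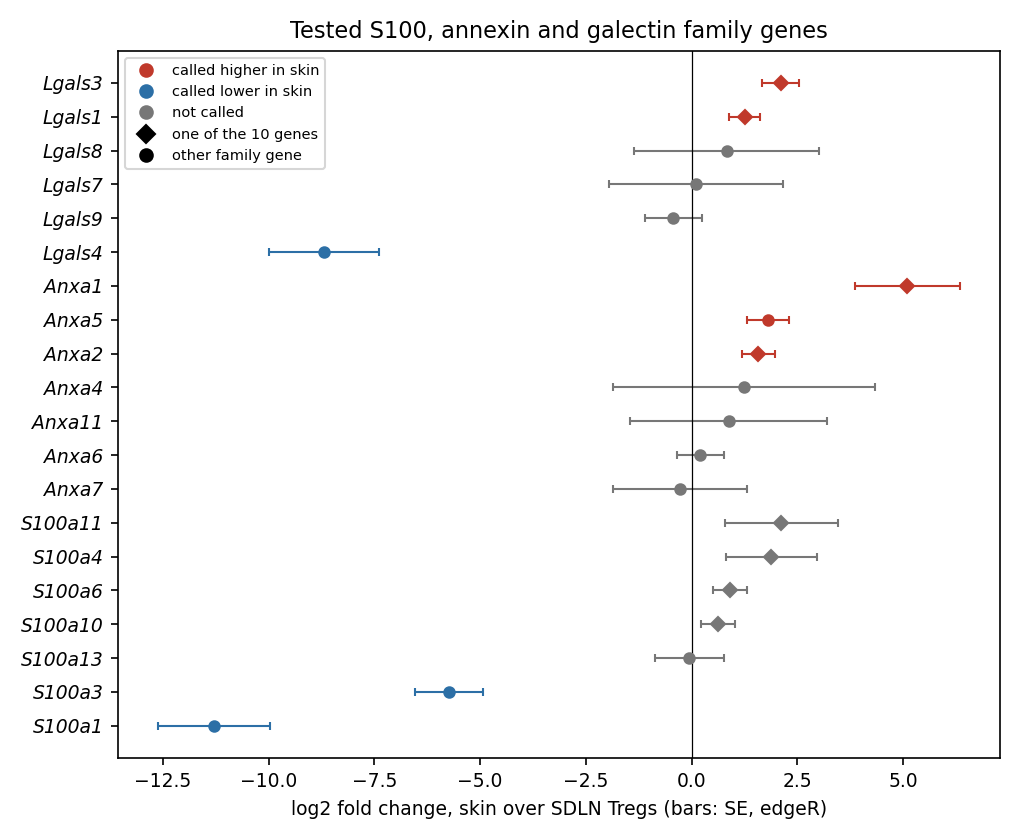
Log2 fold change (skin over SDLN Tregs, edgeR) with its SE for the 20 tested genes of the 3 families, coloured by call, with diamonds for the 8 tested genes of the list of 10 and circles for the other family genes. In all, 5 genes are called higher and 3 lower, and the values of S100a1, S100a3 and Lgals4, which are at the floor in skin, depend on the prior count of the fit.

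Of 20 genes for binding partners and receptors of these proteins, 14 were tested, 1 was called higher and 2 lower in skin. Of all tested genes 1.04% were higher and 45.3% lower, and of the 1623 with over 3 counts in every library 7.39% were higher, so neither count is a result about the list. The higher one was Plaur, the urokinase receptor of the plasminogen system in which Anxa2 and S100a10 take part. It was at 811, 116 and 76.1 CPM in skin A to C, and SDLN A to C held 1.4, 2.25 and 3.39 CPM. The edgeR adjusted p was 0.0103 at a log2 fold change of 6.78 (SE 1.45), and 14 of 17 alternative fits called it. Without 1 library it was called in 4 of 6 fits, not without SDLN A or SDLN B, with log2 fold changes of 5.35 to 7.15. Skin A carried most of its mean, and the other skin libraries were still above every SDLN library. Lgals3bp, a secreted glycoprotein bound by Lgals3, had 0 counts in every skin library and 81.1 ± 3.43 CPM in SDLN (edgeR adjusted p = 0.0103, lost without SDLN B). Mgat5, the enzyme that adds the branched sugars galectins prefer, was at 0, 0.426 and 0 CPM in skin and at 113 ± 5.67 CPM in SDLN (edgeR adjusted p = 0.0229), a call lost without SDLN A, SDLN B or SDLN C. Lgals3bp and Mgat5 also passed the filter only through SDLN. Of the receptors of Anxa1, Fpr1 had 0 counts in all 6 libraries and Fpr2 had 0 in skin, and Tlr4, a receptor for S100a8 and S100a9, had 0 in skin. Cd44, a glycoprotein bound by galectins, was at 820, 398 and 370 CPM in skin and 227, 287 and 127 CPM in SDLN, without overlap but not past the test, its edgeR adjusted p being 0.126 at a log2 fold change of 1.20 (SE 0.52).

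The 2 genes whose profile over the 6 libraries came nearest to each of the 8 were found among 3244 candidates as those with the smallest root-mean-square difference of centred log2(CPM + 1). For Lgals1 they were Cd83, at a difference of 0.11, and Nfkb1, at 0.14. Nfkb1, a subunit of NF-kappa-B, was also nearest to Anxa2, at 0.12, before Magt1 at 0.16. S100a6 ran closest to Itm2b at 0.09 and Prdx1 at 0.13, S100a10 to Esyt1 at 0.15 and Hsp90aa1 at 0.19, and Lgals3 to P2rx4 at 0.24 and Stx4a at 0.29. The differences were larger for 3 genes: S100a4 with Ccnl1 at 0.31 and Hif1a at 0.37, S100a11 with Rab11fip1 at 0.42 and Gadd45b at 0.46, and Anxa1 with Nr4a2 at 0.56 and Il10 at 0.62. Nr4a2, Il10 and Cd83 were called higher in skin too, with edgeR adjusted p of 0.00495, 0.0221 and 0.0359, and the other neighbours were not called. They were chosen for profiles like those of called genes, so their calls are no separate support. Some of these genes, such as S100a10 and S100a11, overlapped between tissues, and nearness here is a description of 6 libraries that share depth and tissue.

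Marker lists of other cells were counted in the same libraries, against 1.04% of all tested genes called higher and 45.3% called lower in skin, or 7.39% and 1.66% of the 1623 with over 3 counts in every library. Of 16 macrophage and monocyte genes, 14 were tested, 12 were higher in skin and 1 was lower, and the list summed to 8269, 6201 and 4453 CPM in skin A to C and 69.3 to 127 CPM in SDLN. Its most abundant gene in skin was Lyz2, at 1057 to 1978 CPM in skin and 26.5 to 53.7 CPM in SDLN, and Itgam, which encodes CD11b, had 0 counts in all skin libraries. Of 14 dendritic and Langerhans cell genes, 11 were tested, 6 were higher and 2 lower, and the list summed to 31625 to 55665 CPM in skin and 395 to 753 CPM in SDLN, led by Cd74. Its members Zbtb46, Xcr1, Clec9a and Cd207 were at the floor throughout skin. Macrophages and dendritic cells make S100a4, S100a6, S100a10, S100a11, Anxa1, Anxa2, Lgals1 and Lgals3 as well, and the part of such cells in the values above was not tested.

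Of 21 effector and tissue Treg genes, 20 were tested and 5 were higher in skin, where 1.04% of all tested genes and 7.39% of the 1623 were (Il10, Ctla4, Ccr2, Vim and Crip1), 0 lower, with list sums of 13505 to 15767 CPM in skin and 7858 to 9504 CPM in SDLN. Among those not called, Tnfrsf4, Tnfrsf18, Gata3, Prdm1, Batf, Itgae and Ccr8 had log2 fold changes below 0, and the rest above 0. Prdm1 was at 0, 2.73 and 0 CPM in skin and 9.91 to 12.2 CPM in SDLN. Areg, not tested, was at the floor in skin. Vim, at 1781, 1513 and 1569 CPM in skin and 473, 493 and 434 CPM in SDLN, had a log2 fold change of 1.78 (SE 0.297, edgeR adjusted p = 0.00468), and Crip1 one of 1.31 (adjusted p = 0.00482). With 1 library left out, Vim and Crip1 were called in 6 of 6 fits, Il10 in 3, Ccr2 in 2 and Ctla4 in 0. Of 9 general T cell and Treg genes, all tested, 0 were called in either direction, and their sums were 5000 to 5815 CPM in skin and 8985 to 10238 CPM in SDLN. Their median log2 fold change was -1.51. For Foxp3, Cd4, Cd3d, Cd3e, Cd3g, Lck and Trac all skin values lay below all SDLN values, as for 53.6% of the genes tested. Of 11 lymphoid homing and resting genes, 0 were higher and 6 lower, near the 45.3% of all tested genes that were lower, with sums of 40.4 to 473 CPM in skin and 1951 to 2368 CPM in SDLN.

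CD8 and NK cell genes summed to 1112 to 1335 CPM in skin and 264 to 294 CPM in SDLN, with 2 of 5 tested genes higher (Gzmb leading in skin), 3 lower and 5 of 7 at the floor in skin. With 1 library left out, Gzmb was called in 5 of 6 fits and the other higher gene, Nkg7, in 1. As 45.3% of all tested genes were lower, the lower calls in this and the next lists are read as no result about those cells. B cell genes summed to 586 to 861 CPM in skin and 1473 to 1712 CPM in SDLN, led by Ighm, with 4 of 5 tested genes lower. Of 10 keratinocyte genes, 9 were at the floor throughout skin, and the list reached 29.6 CPM in skin B through Sfn, against 42.3 to 65.8 CPM in SDLN. Mast cell genes summed to 226 CPM in skin A, through Cma1, to 0 in skin B and C and to 13.1 to 28.7 CPM in SDLN. Fibroblast genes summed to 0, 90.7 and 0.996 CPM in skin A, B and C, with Col3a1 counted in skin B alone, and to 1.5 to 7.99 CPM in SDLN. Endothelial genes summed to 0.511 to 25.9 CPM in skin, where Kdr was counted in skin A alone, and to 142 to 176 CPM in SDLN, nearly all from Pecam1. Erythroid genes, led by Hbb-bs, summed to 137, 263 and 842 CPM in skin and 59.5 to 122 CPM in SDLN.

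**Figure D5:**
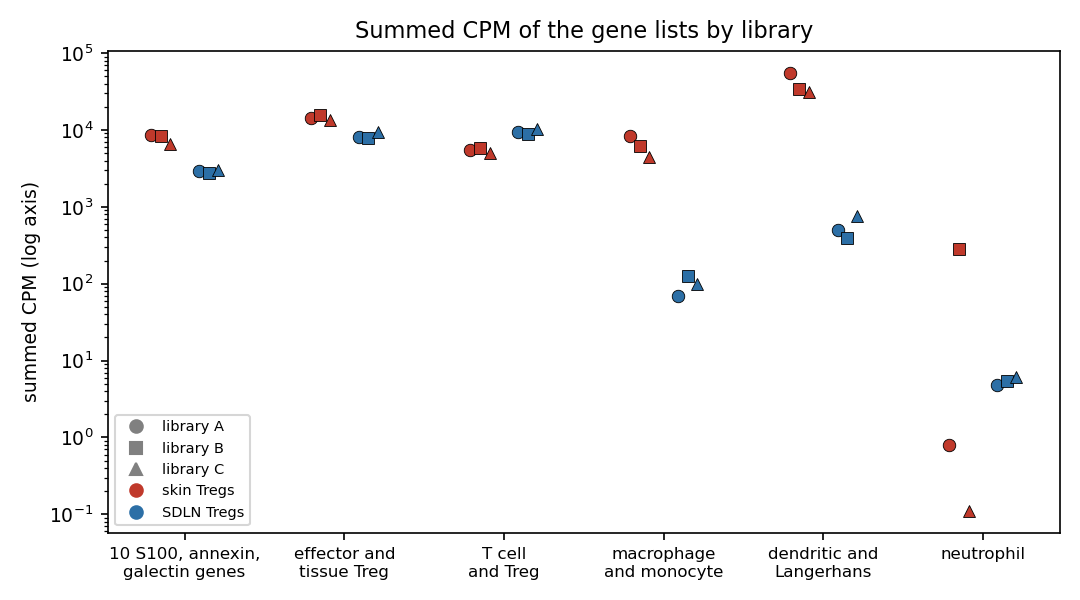
Summed CPM (log axis) of the 10 S100, annexin and galectin genes and of 5 marker lists in each library, skin Tregs in red and SDLN Tregs in blue, with circles, squares and triangles for libraries A, B and C. The 10 genes sum to 6596 to 8589 CPM in skin and 2791 to 3020 CPM in SDLN, and the macrophage and dendritic lists are further apart between tissues than the 10 genes.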

How the data were processed

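The authors trimmed reads with Trimmomatic 0.36, mapped them with STAR 2.5.2b to GRCm38 and counted them per gene with featureCounts (Subread 1.5.2), per the labels. The annotation release, strand setting and duplicate handling are not given in the sources used here. The deposited values are raw counts of 49315 Ensembl genes in 6 libraries, with no normalization and no molecular identifiers described, so the floors cover counting error only. GENCODE M21, on the same build, gave 49056 of the genes a symbol.

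Here, edgeR 4.0.16 (filterByExpr, TMM, robust quasi-likelihood F test, tissue as the only term, R 4.3.3) was run on all genes, with Benjamini-Hochberg adjustment over the 13572 tested and a threshold of 0.05. The SE was derived from the F statistic. The script was tested on simulated data. CPM values use the library total. The 10 genes and all lists were chosen with earlier results of these data known. Text names the 10 genes, family and partner genes past the threshold, the 2 nearest profiles of each gene (at least 100 CPM in either tissue), 3 sorting and T cell genes and the most abundant gene of each marker list in skin; other genes, among them Anxa6, S100a13, Lgals8, Anxa4, Cd44, Cd3d, Cd3e, Fpr1, Fpr2, Tlr4 and marker genes other than the leading ones, were named after their values were seen. Alternatives were other scalings (DESeq2 1.42.0 size factors, TMMwsp, upper quartile, library size), DESeq2, limma 3.58.1 voom, other filters, non-robust dispersion, drawn-down depth, a block and leaving out each library.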

Additional observations from a re-analysis of the deposited data

How the results depend on the processing

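The ratio of summed CPM of the 10 genes, 2.7, was 2.62 with CPM scaled by TMM, 2.7 with drawn-down counts and 2.58 to 2.92 without 1 library, the alternatives run for it, and 0 of them were called lower in any fit. The count called higher, 4, became 1 with upper quartile scaling, 1 with no filter, 2 under a minimum of 10 counts per library and 0 to 5 when 1 library was left out. For all 3 families the 5 higher became 1, 1, 2 and 0 to 6 under the same settings, and the 3 lower became 0 with at least 10 counts, since genes at 0 in skin then leave the test, and 3 to 5 without 1 library. For binding partners the 1 higher became 2 with DESeq2 and 0 to 2 without 1 library, and the 2 lower became 0 with at least 10 counts and 0 to 4 without 1 library. Of 136 fold changes of the 8 genes under alternatives, 109 kept direction and side of the threshold, 22 lost the call, 4 gained it and 1 reversed (S100a11, -0.11 with limma voom). Upper quartile scaling moved the median log2 fold change of 1623 genes over 3 counts in every library from 0.28 to 6.82. Relative to that median, Anxa1 was at 4.19, Anxa2 at 0.92, Lgals1 at 0.74 and Lgals3 at 2.01, against 4.82, 1.30, 0.98 and 1.83 in the chosen fit. Why calls were lost was not tested. The totals of the skin libraries limit what can be seen of rare transcripts such as S100a8.

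Column letters are shared by the tissues, but nothing says that a letter marks the same mice. Deviations from the tissue means correlated at 0.087, 0.0017 and 0.109 for A, B and C over 8274 genes, skin A and C correlated best with their own letter, and skin B, with all values near 0, with SDLN A. Not every pair was over 0.1, a cut set here, so the letters were not treated as pairs. The paper describes harvest of skin and nodes before pooling, so pools shared by the tissues are possible. Correlations this near 0 cannot exclude them. With the letter as a replicate block, 2 of the 10 genes were called higher (Anxa2, Lgals1), the adjusted p being 0.355 for Anxa1 and 0.0736 for Lgals3, with 2 family genes higher, 0 binding partners higher and 1 lower.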

Other observations

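For 6 of the 8 genes counted everywhere, the library with the lowest value carried the same letter in skin and in SDLN, and for 5 of them (S100a4, S100a6, S100a10, S100a11 and Anxa1) that letter was C. Among 1623 tested genes with over 3 counts in every library, 38.1% had the same letter lowest in both tissues and 18.9% had C lowest in both. The letters are not known to link the tissues, and no test was made of this count.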
